A study of Mus musculus with 12 samples.

Results

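The machinery of endoplasmic reticulum associated degradation (ERAD) was examined in antibody-secreting plasma cells of a recall response, across 12 mouse gene expression arrays. The members were 10 listed genes, Syvn1, Sel1l, Herpud1, Os9, Edem1, Edem2, Edem3, Derl1, Derl2 and Derl3, found by symbol in the probe annotation among 19938 genes. They were chosen by function and not by a measured value. Each was measured by 1 probe set, and all 10 lay above the filter on low values that left 14953 genes for testing.

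Donor splenocytes carrying the CD45.2 allele came from mice immune to NP-CGG, the hapten NP on a carrier protein, and were either wild type (Zbtb32 +/+) or Zbtb32-/-. They were transferred into CD45.1 recipients, which were challenged with NP-CGG. After 7 days, bone marrow cells that were CD138+, CD45.2+ and NP+ and also B220-, Ly6g-, CD11b- and CD45.1- were sorted, so both genotypes shared the transfer, the challenge and the gate. There were 6 arrays of each genotype, described in the series text as biological replicates with no animal named, and p-values measure only the spread among these samples. Zbtb32 encodes a zinc finger transcriptional repressor, and the labels name no cell-specific driver for its deletion. The strain, age and sex of the mice, any irradiation of the recipients and any pooling are not given in the sources used here.

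ERAD removes proteins that fail to fold in the endoplasmic reticulum. Misfolded glycoproteins are trimmed of mannose, recognised by lectins, passed through the membrane, tagged with ubiquitin and handed to the proteasome. Many of its genes are induced by the unfolded protein response, through XBP1 and ATF6, and plasma cells depend on XBP1 to build the secretory apparatus that makes antibody.

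The promoters of 3 members are shown because each holds a motif through which ATF6 and XBP1 are known to act. Sequences of 200 bases ending just before the start of the gene were taken from RefSeq (GRCm38.p6), in which 9 of the 10 members had 10 promoters, 2 of them for Derl2. Capitals mark the fixed letters of the motif. The stretches lie at chr19:6046376-6046575 for Syvn1, chr8:94386229-94386428 for Herpud1 and chr10:75893198-75893397 for Derl3, all on the plus strand.
Syvn1: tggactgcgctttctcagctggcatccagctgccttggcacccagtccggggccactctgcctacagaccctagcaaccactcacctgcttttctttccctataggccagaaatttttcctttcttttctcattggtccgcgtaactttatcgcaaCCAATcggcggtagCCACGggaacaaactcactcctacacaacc
Herpud1: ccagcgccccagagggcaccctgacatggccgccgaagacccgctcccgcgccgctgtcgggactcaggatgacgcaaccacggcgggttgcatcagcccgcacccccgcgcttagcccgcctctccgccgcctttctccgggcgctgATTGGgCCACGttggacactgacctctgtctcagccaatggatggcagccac
Derl3: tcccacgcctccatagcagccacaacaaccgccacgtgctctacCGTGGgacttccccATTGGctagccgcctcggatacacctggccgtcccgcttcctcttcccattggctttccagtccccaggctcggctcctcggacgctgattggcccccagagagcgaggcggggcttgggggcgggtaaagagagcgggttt
The ER stress response element (ERSE: CCAAT, any 9 bases, CCACG, either strand) stood at bases -44 to -26 from the start of Syvn1 and, on the opposite strand, at -156 to -138 of Derl3. ERSE-II (ATTGG, any 1 base, CCACG) stood at -52 to -42 of Herpud1. In the same table, 39 of 32851 promoters (250 bases before and 50 after the start), or 0.119%, held an ERSE and 12, or 0.0365%, an ERSE-II. The unfolded protein response element TGACGTGG was in 0 of the 9 members and in 0.676% of all promoters. The core ACGTG was found in 5 members (Herpud1, Os9, Edem2, Edem3 and Derl3) and in 19.6% of all promoters, and in Herpud1 it overlapped the ERSE-II. These matches describe letters in a window and were not tested as binding sites.

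Values are log2 RMA intensities, in which 1 unit is a 2-fold change, and levels of different probe sets are not compared. Array medians lay between 6.28 and 6.43, and arrays correlated with each other at 0.914 to 0.984. Zbtb32 itself differed by -0.11 between the genotypes (exact permutation p = 0.173, two-sided), and since no source used here states which part was deleted, this does not check the labels. All 10 plasma cell markers that were listed, among them Sdc1, the gene of CD138, and Xbp1, were measured above the filter. Markers of cells that the gate should remove were present too: the mean of 12 neutrophil markers ran from 7.98 in wild-type replicate 2 to 12.35 in Zbtb32-/- replicate 6. The labels name no batch. Between replicates 1 to 3 and 4 to 6, limma nevertheless called 965 of 14953 genes (6.45%) at an adjusted p of 0.05. This grouping by replicate number was drawn after earlier results of these data were known, and the groups are here called replicate sets. Whether whole arrays separate by set was not tested. Wild-type replicate 4 and Zbtb32-/- replicate 6 had the lowest means of the members (10.21 and 10.44). They also had the highest means of markers of other cells (8.31 and 8.91). Wild-type replicate 5 was close to the former in those markers (8.22) and to the latter in the members (10.51). Results are given with and without wild-type replicate 4 and Zbtb32-/- replicate 6.

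Loss of Zbtb32 came with no detected difference in the ERAD genes. No member passed the test between the genotypes, where 0 of 14953 genes (0%) were called by limma at an adjusted p of 0.05, and 641 genes (4.29%) but none of the members had an unadjusted p under 0.05. All 10 members were slightly higher in Zbtb32-/- arrays, by 0.04 for Edem1 to 0.19 for Os9, with a median of 0.116 against 0.0119 over all genes, of which 52.9% were higher; after renewed quantile normalization the median was 0.0414 and Edem1 stood at -0.0048. Over the 9969 genes above a stricter filter, at the 50th percentile, the median difference was 0.0642. Adjusted p-values of the members ran from 0.932 to 0.975. The highest 95% limit was that of Derl3, 0.13 with limits of -0.39 and 0.66, and the lowest that of Derl2, 0.09 with limits of -0.44 and 0.62, so a 2-fold difference lay outside the interval of each member.

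Syvn1, the ubiquitin ligase of the complex, ran from 10.49 to 11.57 with a median of 11.02 in wild-type arrays and from 10.78 to 11.40 with a median of 11.15 in Zbtb32-/- arrays. Its partner Sel1l, which holds the ligase complex together, ran from 8.88 (median 9.63) to 10.20 in wild-type arrays and from 9.48 (median 9.66) to 10.08 in Zbtb32-/- arrays. For both genes the Zbtb32-/- range lay wholly inside the wild-type range. The same nesting held for Herpud1, a short-lived membrane protein that assists the ligase complex, with 11.71 to 13.06 (median 12.04) in wild-type and 11.74 to 12.71 (median 12.23) in Zbtb32-/- arrays. Os9, a lectin that recognises trimmed glycans, had the largest difference, 0.19 (SE 0.16, adjusted p = 0.932 with limma). Its wild-type values ran from 10.65 to 11.60 (median 11.12) and its Zbtb32-/- values from 10.91 to 11.52 (median 11.35), so these groups overlapped as well.

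The genes of the mannosidase-like Edem proteins and of the derlins passed no test between the genotypes either. Edem1, the founding member of its family, ran from 11.78 to 12.53 (median 12.24) in wild-type and from 12.01 to 12.37 (median 12.29) in Zbtb32-/- arrays, a difference of 0.04 (SE 0.12). Edem2 ran from 11.18 to 11.99 (median 11.53) and from 11.19 to 11.92 (median 11.78), a difference of 0.08 (SE 0.16). Among the derlins, which span the membrane and help to move substrates out, the Zbtb32-/- medians of Derl1 (10.28) and Derl2 (8.82) were above the wild-type medians (9.88 and 8.56), while that of Derl3 was below (10.60 against 10.61). The derlin differences of 0.16 (SE 0.16), 0.09 (SE 0.25) and 0.13 (SE 0.25) were at most about the size of their standard errors, and the genotypes overlapped for all 3.

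**Figure D1:**
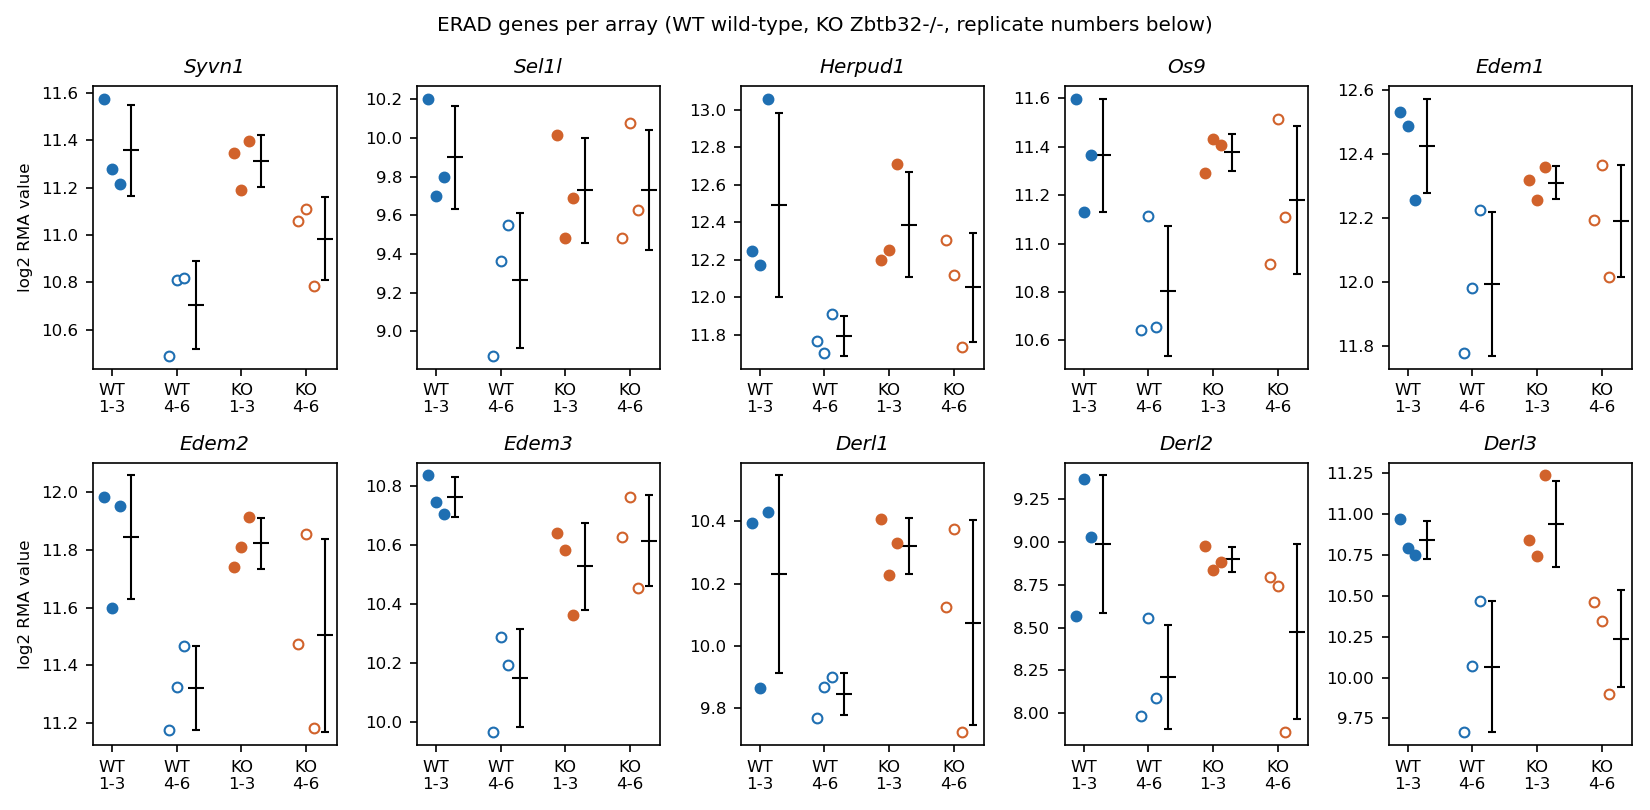
Log2 RMA value of each ERAD gene on each array, in wild-type (WT, blue) and Zbtb32-/- (KO, orange) samples, split into replicates 1 to 3 (filled) and 4 to 6 (open), with the mean and SD of 3 arrays beside them. Each panel has its own vertical axis, which does not start at 0. Genotypes overlap in every panel, while for Syvn1 and Derl3 all 6 arrays of replicates 4 to 6 lie below all 6 arrays of replicates 1 to 3.

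The genotype difference was also taken within each replicate set, and no gene passed the test of whether it differed between the sets. In data simulated with independent noise, that test called 4.48% of true interactions of 0.5 and 35.8% of those of 1 log2 unit. A lack of calls therefore does not show that the sets were alike. Over replicates 1 to 3, 7 of 10 members were lower in Zbtb32-/- arrays, with a median difference of -0.0671, and over replicates 4 to 6 all 10 were higher, with a median of 0.263. No member passed the adjusted threshold in either set. Leaving out wild-type replicate 4 turned 4 members negative (Edem1, Edem2, Derl2 and Derl3) and brought the median to 0.0037. That array held the lowest value of Syvn1, Sel1l, Os9, Edem1, Edem2, Edem3 and Derl3. All 10 members stayed higher without Zbtb32-/- replicate 6 (median 0.182). The same held without both wild-type replicate 4 and Zbtb32-/- replicate 6 (median 0.0963).

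Edem3, one of the mannosidase-like proteins that mark glycoproteins for degradation, was the only member whose genotypes did not overlap within a set. In replicates 1 to 3 its values were 10.84, 10.75 and 10.71 in wild-type and 10.64, 10.58 and 10.36 in Zbtb32-/- arrays. In replicates 4 to 6 they were 9.97, 10.29 and 10.20 in wild-type and 10.63, 10.76 and 10.46 in Zbtb32-/- arrays. The wild-type arrays thus lay above all Zbtb32-/- arrays in the first set and below all of them in the second. Over all genes tested, 3.46% separated as Edem3 did in replicates 1 to 3, 7.19% as it did in replicates 4 to 6 and 0.214%, or 32 genes, as it did in both. The genotype difference of Edem3 was -0.23 (SE 0.12) in the first and 0.46 (SE 0.16) in the second, and the interaction of genotype and set was 0.70 (SE 0.19), with an unadjusted limma p of 0.002995 that ranked 35 among all genes and an adjusted p of 0.998. No gene was called for the interaction (0%), 579 genes (3.87%) had an unadjusted p under 0.05, and Edem3 was the only member among them. The interaction was positive for all 10 members, with a median of 0.34 against 0.0148 over all genes, of which 52.5% were positive. Over the genes above the stricter filter the median was 0.0508. The interaction of Derl3 turned to -0.0085 after renewed quantile normalization.

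**Figure D2:**
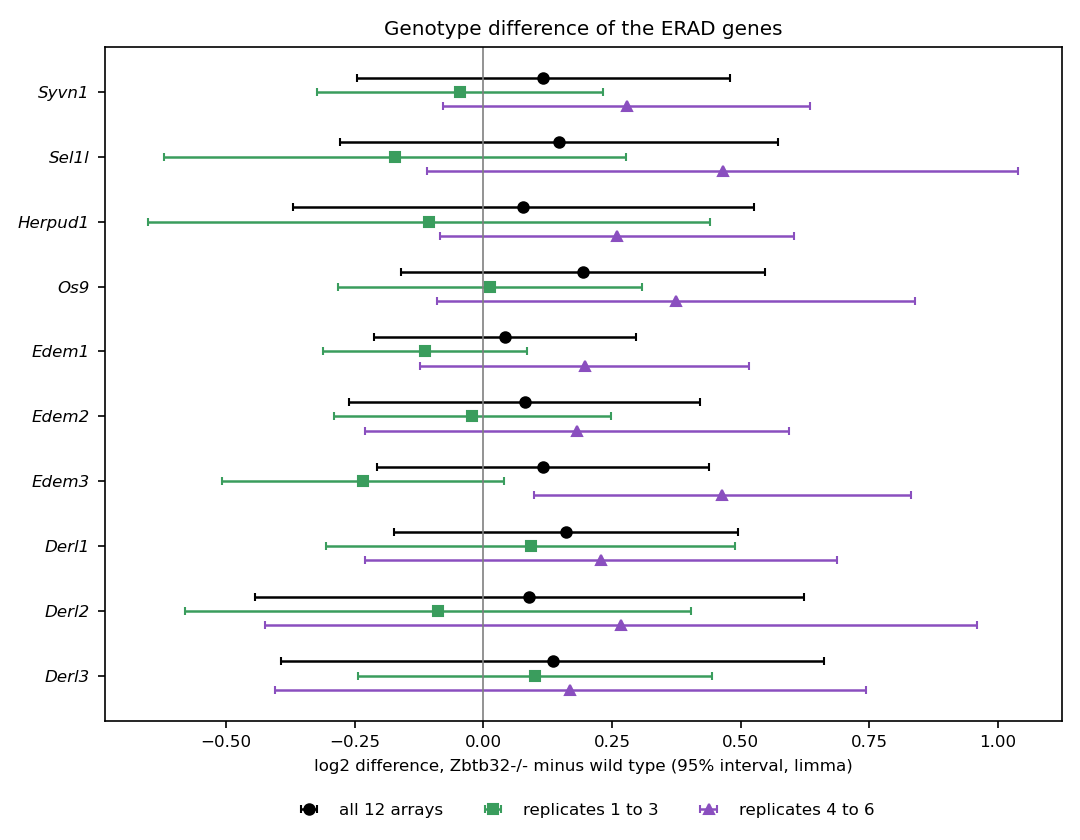
Difference between Zbtb32-/- and wild-type arrays for each ERAD gene on the log2 scale, with 95% limma intervals, over all 12 arrays (black), replicates 1 to 3 (green) and replicates 4 to 6 (purple). Over all arrays every interval crosses 0, and of the 30 intervals only that of Edem3 in replicates 4 to 6 does not.

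Between the replicate sets 3 of the 10 ERAD genes passed the test, and none of them did with a covariate for markers of other cells or without wild-type replicate 4 and Zbtb32-/- replicate 6. All 10 members had lower means in replicates 4 to 6, under renewed quantile normalization and median centring too. Their median was -0.399 against -0.064 over all genes tested, of which 61.3% were lower. Over the 9969 genes above the stricter filter the median was -0.126. After quantile normalization the member median was -0.318 with 2 members called, and after median centring it was -0.443. The 3 that passed the adjusted threshold with limma were Derl3, Syvn1 and Edem2, and 8 members were lower at an unadjusted p under 0.05, all but Sel1l and Edem3. Over all genes, 965 (6.45%) were called, 299 higher (2%) and 666 lower (4.45%), and 17.9% were lower at the unadjusted threshold. After median centring 266 were higher and 1014 lower. The calls over all genes fell by more than 1.5 times on leaving out any of 8 arrays, to 238 without wild-type replicate 1, 361 without 3, 392 without 4 and 424 without 5, and to 359 without Zbtb32-/- replicate 1, 536 without 2, 307 without 3 and 359 without 6.

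Derl3, a member of the derlin family of membrane proteins that move substrates out of the endoplasmic reticulum and one that is prominent in secretory tissues, had the largest difference. Its values were 10.97, 10.79 and 10.75 in wild-type replicates 1 to 3 and 9.67, 10.07 and 10.47 in wild-type replicates 4 to 6. In Zbtb32-/- arrays they were 10.84, 10.74 and 11.24 and then 10.46, 10.35 and 9.90. The sets did not overlap, which held in this direction for 2.87% of all genes tested and for 2 of the 10 members. The difference was -0.74 (SE 0.15, adjusted p = 0.0178 with limma), a level 1.67-fold lower, and it was called with any single array left out (adjusted p of 0.0162 to 0.0491). It was -0.77 in wild-type and -0.70 in Zbtb32-/- arrays alone.

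Syvn1 was the other member whose sets did not overlap. It measured 11.57, 11.28 and 11.22 in wild-type replicates 1 to 3, against 10.49, 10.81 and 10.82 in replicates 4 to 6. The Zbtb32-/- values were 11.35, 11.19 and 11.40 against 11.06, 11.11 and 10.78. Every array of the later numbers thus fell below every array of the earlier ones, and the difference was -0.49 (SE 0.10, adjusted p = 0.0235 with limma), or 1.4-fold lower. It missed the threshold without wild-type replicate 1 (-0.423, adjusted p = 0.0556) and without Zbtb32-/- replicate 3 (-0.488, adjusted p = 0.0507). For Syvn1, Derl2 and Derl3 the exact permutation p within genotypes was 0.005, the smallest that 400 assignments can give.

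Edem2, which starts the mannose trimming, measured 11.99, 11.60 and 11.95 in wild-type replicates 1 to 3 and 11.18, 11.33 and 11.47 in replicates 4 to 6. In Zbtb32-/- arrays it measured 11.74, 11.81 and 11.92 and then 11.47, 11.85 and 11.19, where replicate 5 reached into the range of the first set. The difference was -0.42 (SE 0.11, adjusted p = 0.0428 with limma). This call was kept only without wild-type replicate 2 (adjusted p = 0.0394) or Zbtb32-/- replicate 5 (adjusted p = 0.0116). It was lost on leaving out any other single array, with adjusted p-values up to 0.0985. The call was also lost after renewed quantile normalization and in the variance model without a trend.

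The remaining members were lower without passing the threshold in limma. Derl2 differed by -0.60 (SE 0.19, adjusted p = 0.0768), running from 8.57 to 9.37 (median 8.93) in replicates 1 to 3 and from 7.89 to 8.80 (median 8.32) in replicates 4 to 6. Herpud1 differed by -0.52 (SE 0.16, adjusted p = 0.0669), with 12.17 to 13.06 (median 12.25) against 11.71 to 12.30 (median 11.84). Both passed without Zbtb32-/- replicate 4, at adjusted p-values of 0.0484 and 0.0433. Os9 (-0.38, adjusted p = 0.0926) and Edem1 (-0.28, adjusted p = 0.0883) passed without Zbtb32-/- replicate 5, at 0.0303 and 0.0405. Derl1, another derlin, differed by -0.32 (adjusted p = 0.147), with 9.87 to 10.43 (median 10.36) in replicates 1 to 3 and 9.72 to 10.37 (median 9.88) in replicates 4 to 6. Sel1l at -0.32 (adjusted p = 0.287) and Edem3 at -0.26 (adjusted p = 0.229) had wild-type differences of -0.64 and -0.61, while in Zbtb32-/- arrays they stood at 0.00122 and 0.0854.

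The shift was carried unevenly by the arrays. Wild-type replicate 4 was among the 3 lowest arrays for all 10 members, with a mean deviation of -0.56 from their 12-array means, and wild-type replicate 5 and Zbtb32-/- replicate 6 were among the 3 lowest for 7 members each. Wild-type replicates 4, 5 and 6 and Zbtb32-/- replicate 6 were below the mean for every member. Zbtb32-/- replicate 4, with a mean deviation of -0.03, was below the mean for 6 members, and Zbtb32-/- replicate 5, at 0.15, for 2. The arrays of replicates 1 to 3 had mean deviations of 0.11 to 0.31, so of these 2 arrays only Zbtb32-/- replicate 5 reached into their range. Within wild-type arrays the median member difference was -0.625 with 10 of 10 lower, and within Zbtb32-/- arrays it was -0.283 with 8 of 10 lower. No member passed within either genotype, each with 3 arrays against 3.

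**Figure D3:**
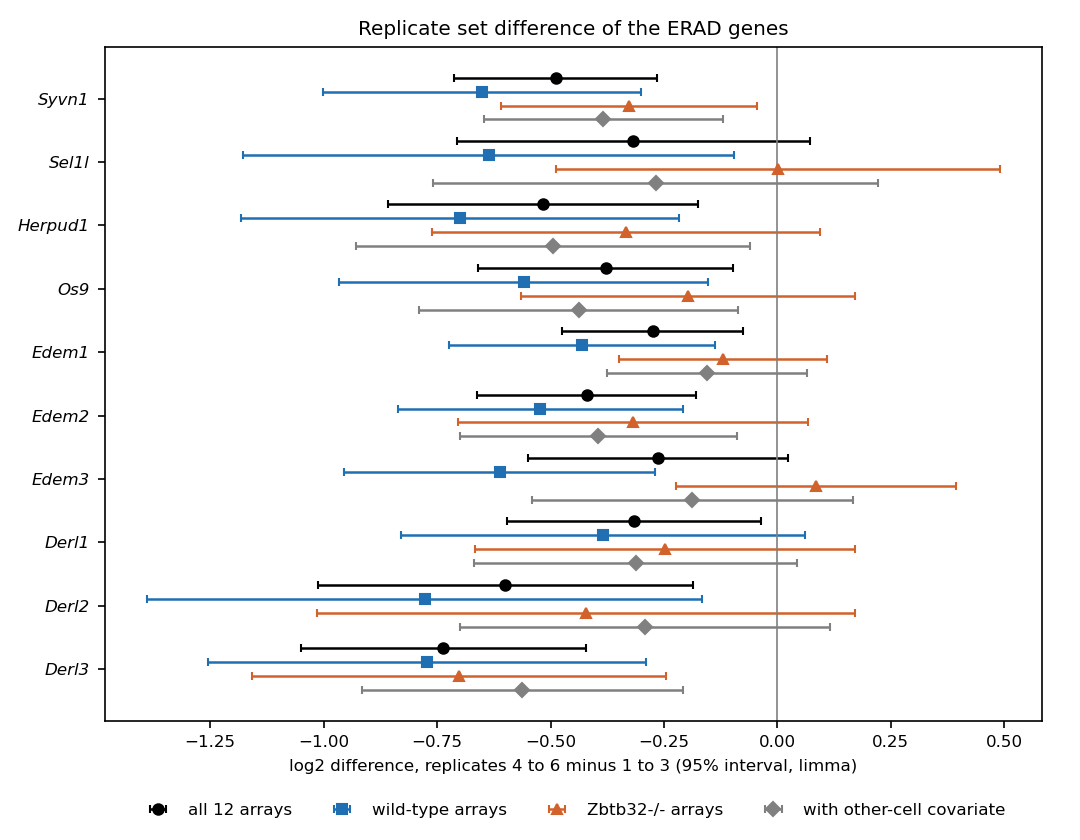
Difference between replicates 4 to 6 and replicates 1 to 3 for each ERAD gene on the log2 scale, with 95% limma intervals, over all 12 arrays (black), wild-type arrays (blue), Zbtb32-/- arrays (orange) and with the mean of markers of other cells as a covariate (grey). Points lie left of 0 except those of Sel1l and Edem3 in Zbtb32-/- arrays, at 0.00122 and 0.0854.

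Some markers of other cells passed the test between the replicate sets in the opposite direction. Over all genes, 38.7% were higher in replicates 4 to 6 and 61.3% lower, with 2% called higher and 4.45% called lower. All 12 neutrophil markers had higher means in replicates 4 to 6 (median 1.30), and 4 of them, Mmp8, Retnlg, S100a8 and S100a9, passed the threshold; their mean per array ran from 7.98 to 10.77 (median 9.75) in replicates 1 to 3 and from 9.87 to 12.35 (median 10.82) in replicates 4 to 6. All 8 monocyte and macrophage markers had higher means too (median 0.746, 3 called), with means of 6.59 to 7.57 against 7.01 to 8.66. Of 10 B cell markers, 8 were higher (median 0.592, 1 called), with means of 7.57 to 8.51 against 8.07 to 8.99. Erythroid markers (1 of 8 higher) and T and NK cell markers (6 of 8 higher) had no call, and 2 of 5 basophil and mast cell markers were above the filter, neither called. The lowest value of any probe set was 2.325, so no marker could be at 0, which does not show that each was detected. The 2 measures did not always part. Zbtb32-/- replicate 5 had a neutrophil mean of 10.86 and a mean member deviation of 0.15. Wild-type replicate 3 (10.37 and 0.28) and Zbtb32-/- replicate 2 (10.77 and 0.11) were also above both means, that of the neutrophil markers being 10.26 over 12 arrays. All 10 plasma cell markers were lower (median -0.376), and Xbp1, Prdm1 and Fkbp11 passed; the list means ran from 11.25 to 11.39 in replicates 1 to 3 and from 10.63 to 11.22 in replicates 4 to 6. In sorted bulk samples such as these, fewer cells of a type and less RNA per cell cannot be told apart.

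The member differences were also fitted beside these markers. With the mean of the neutrophil, monocyte, erythroid, T and NK cell markers per array as a covariate, all 10 members stayed lower, with a median of -0.348 and a smaller difference for all but Os9 (-0.44), and none was called, at -0.56 for Derl3 (adjusted p = 0.126 with limma), -0.38 for Syvn1 (0.147) and -0.40 for Edem2 (0.18). This covariate left 36 calls over all genes. Wild-type replicate 4 and Zbtb32-/- replicate 6 had the highest means of those markers (8.31 and 8.91). They also had the lowest means of the members (10.21 and 10.44), and both belong to replicates 4 to 6. Leaving them out thus cannot separate the markers from the members. Without them the median was -0.312, with 10 of 10 lower and none called. In the genotype comparison, where 52.9% of all genes were higher, all 12 neutrophil markers were higher in Zbtb32-/- arrays by a median of 0.38. None was called, and 7 of 10 plasma cell markers were higher, with a list median of 0.0944. The part of the other cells in the member differences was not tested beyond these values.

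**Figure D4:**
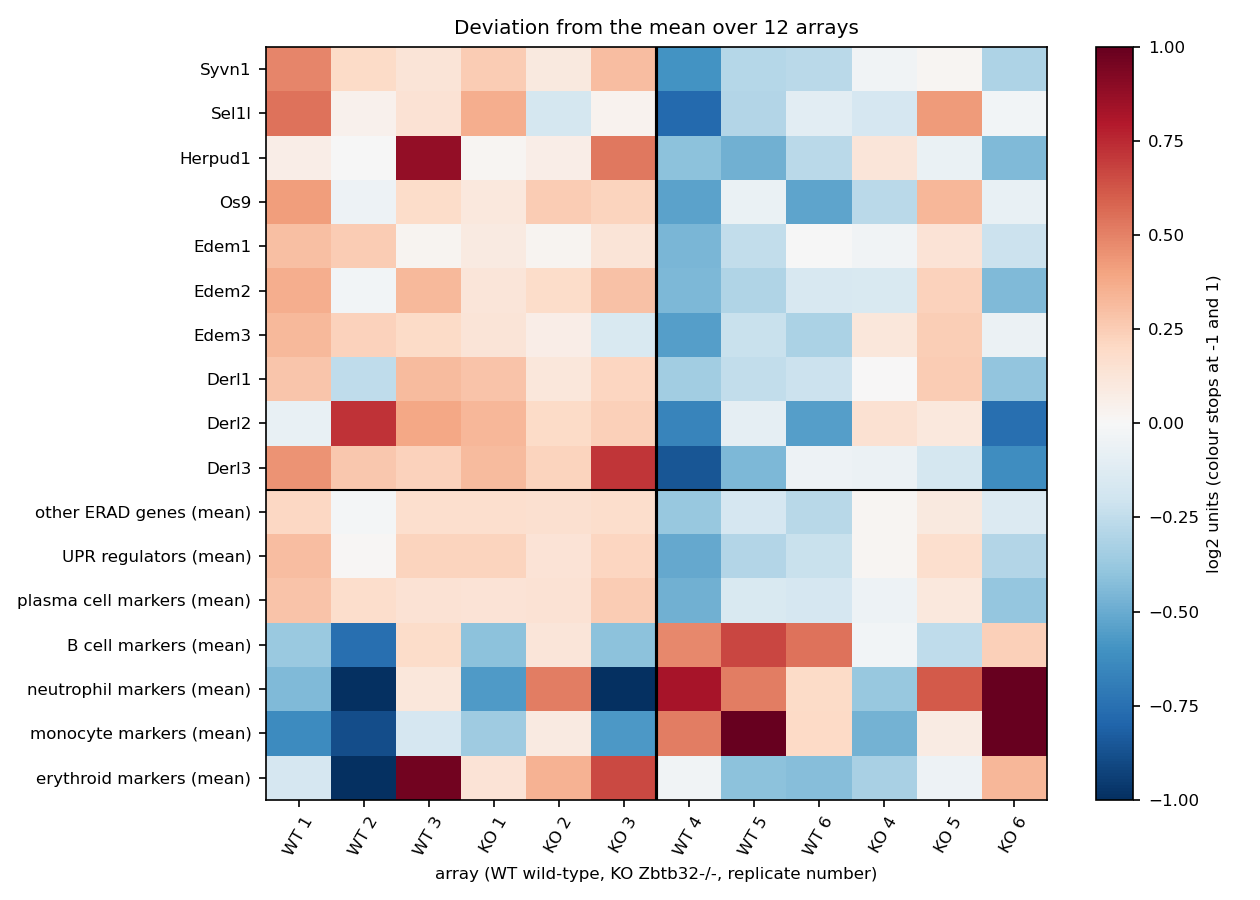
Deviation of each ERAD gene, and of the means of the other gene lists, from its mean over 12 arrays, in log2 units, with colour stopping at -1 and 1; columns are arrays ordered by replicate set. ERAD genes are below their means in wild-type replicates 4 to 6 and Zbtb32-/- replicate 6, where neutrophil and monocyte markers are above theirs. Zbtb32-/- replicate 5 is above the mean in neutrophil markers and in 8 of the 10 genes. Wild-type replicate 3 and Zbtb32-/- replicate 2 are also above the mean in neutrophil markers, with mean deviations of the ERAD genes of 0.28 and 0.11.

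The rest of the ERAD pathway was described by 60 further genes, of which 57 had a probe set and 56 were tested. Between the genotypes, 49 were higher and 7 lower in Zbtb32-/- arrays, with a median of 0.16 and none called, and 52.9% of all genes were higher. At an unadjusted limma p under 0.05, 5 were higher, against 2.84% of all genes. The largest differences were 0.56 for Man1a2, a mannosidase, 0.45 for Jkamp, a membrane protein that recruits ERAD components, and 0.42 for Sgta, a cochaperone. The lowest were -0.14 for Atxn3, a deubiquitinase, and -0.12 for Fbxo2 and Fbxo6, which recognise glycoproteins in the cytosol. Between the sets, 61.3% of all genes were lower in replicates 4 to 6 and 4.45% were called lower. Of the 56, 48 were lower, with a median of -0.303, and 6 were called lower and none higher. These were the lectin Erlec1 (-0.89), the mannosidase Man1b1 (-0.63), the membrane protein Selenos (-0.62), the ATPase Vcp that extracts substrates (-0.51), the ubiquitin-conjugating enzyme Ube2g2 (-0.71) and the ligase Rnf185 (-0.72), with adjusted limma p-values of 0.0117 to 0.049. The highest values were those of Erlin1 (0.35), Usp25 (0.25) and Marchf6 (0.18), none called.

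Regulators of the unfolded protein response gave like values. All 11 tested were higher in Zbtb32-/- arrays, against 52.9% of all genes, by a median of 0.164, with none called. Creb3l2, a membrane-bound transcription factor, had 0.27, the chaperone component Sdf2l1 0.23 and Atf6b 0.23, while the sensor kinase Eif2ak3 had the smallest at 0.05, below the protease gene Mbtps1 at 0.07 and Ddit3 at 0.09. All 11 were lower in replicates 4 to 6, against 61.3% of all genes, with a median of -0.336. While 4.45% of all genes were called lower, 5 of the 11 passed the threshold. Those were the chaperone Hspa5 (-0.36), the transcription factors Xbp1 (-0.31), Atf6 (-0.44) and Atf6b (-0.75), and Mbtps1 (-0.67), whose product cleaves ATF6. Ddit3, Creb3l2 and Eif2ak3 had the highest values, at -0.06, -0.23 and -0.24.

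Across the 12 arrays many of the members correlated with each other. Of 45 pairs, 37 had a Pearson correlation with an adjusted permutation p under 0.05 over the 45 pairs, and 30 had such a Spearman correlation. The median Pearson r was 0.729, against medians of 0.0822 to 0.16 between single members and all genes tested, and it ran from 0.401 for Sel1l and Herpud1 to 0.927 for Syvn1 and Derl3 (adjusted permutation p = 0.00105; rho 0.965, adjusted permutation p = 0.00045). Without the 2 arrays farthest from the median, Syvn1 and Derl3 had an r of 0.901, and over the pairs r had a median of 0.577 and stayed positive in all 45. Edem2 and Derl1 had an r of 0.922, and Syvn1 and Edem1 0.912. The members were not always each other's closest genes: none of the other 9 was among the 5% of genes most correlated with Derl2, and 2 were for Derl1, against 7 for Syvn1. After renewed quantile normalization 19 pairs passed, with a median r of 0.619.

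Within single replicate sets no pair passed the adjustment. Within replicates 1 to 3 the median r was 0.172 and within replicates 4 to 6 it was 0.728, tested for each pair by exact permutation, where 1 pair alone at the smallest possible p of 0.00278 would have an adjusted p of 0.125. As deviations from the means of genotype and set, the median r was 0.50 and 0 pairs passed. Derl2 stood apart in replicates 1 to 3, where its r with Os9 was -0.977, against 0.539 in replicates 4 to 6. These correlations describe the arrays, and neither a shared composition of the samples nor a link between genes was tested as their source.

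**Figure D5:**
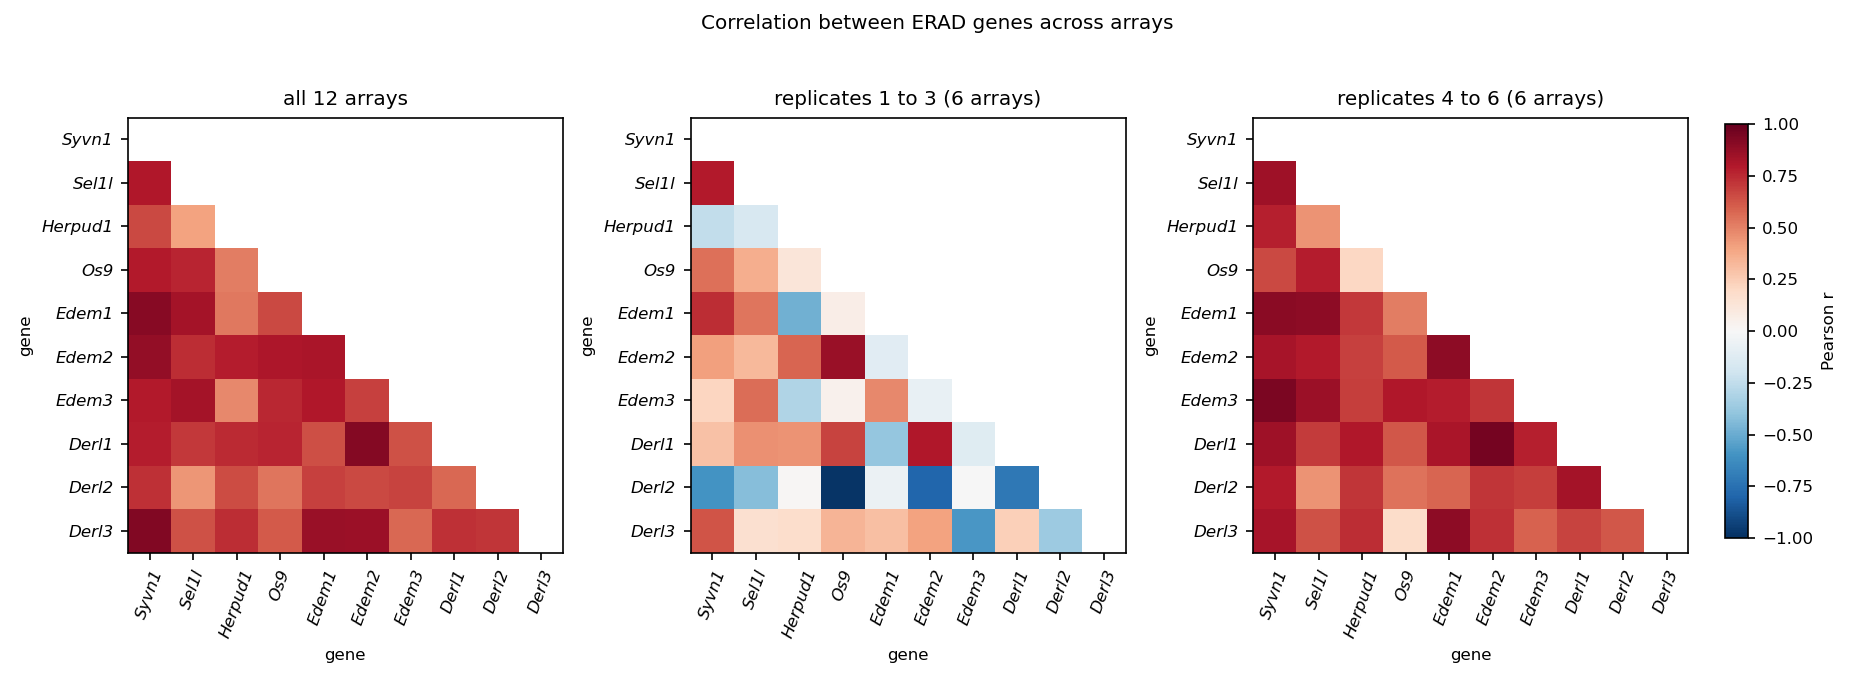
Pearson correlation between each pair of ERAD genes, over all 12 arrays (left) and over the 6 arrays of each replicate set (middle and right), on a colour scale from -1 to 1. Pairs are positive throughout the left and right panels, and of mixed sign in the middle one, whose lowest value is -0.977 for Os9 and Derl2.

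The genes outside the fixed lists whose pattern was most like the mean of the 10 members were ranked by Pearson r over the 12 arrays. They were Cope (0.979), a subunit of the COPI vesicle coat; Ddost (0.975) and Rpn2 (0.966), subunits of the oligosaccharyltransferase that attaches N-glycans; H13 (0.973), the signal peptide peptidase; Rexo2 (0.973), an oligoribonuclease; Fut8 (0.970), which adds core fucose to N-glycans; Tbrg1 (0.967); and Klhdc2 (0.965), a substrate receptor of a ubiquitin ligase. Within replicates 4 to 6 their r with the member mean ran from 0.933 to 0.992, and within replicates 1 to 3 from 0.418 for Fut8 to 0.914 for Tbrg1. The arrays of both sets were used for the ranking, so these values are not independent of it. Among single members, Syvn1 was most like Man1b1 (0.978) and Edem1 most like Sdc1 (0.963), while the gene most like Sel1l was Ern1 (0.943), the sensor that splices Xbp1 mRNA.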

How the data were processed

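Sorted donor plasma cells were measured on Affymetrix mouse gene arrays, 6 per genotype. Per the labels' protocols, a Nucleospin RNA XS kit gave the RNA and a WT Pico kit the biotin-labelled target; amplifying small amounts of RNA can add to the spread. The deposited log2 values come from RMA as run in Affymetrix Expression Console, according to the submitters' processing notes; versions are not given in the sources used here, and neither is whether the arrays were normalized together. RMA compresses low values and hides differences in total RNA. The deposited table names no genome build. The number of arrays limits the precision.

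Of 35556 probe sets, 21789 name 1 gene, 1621 several and 12146 are unnamed here. For each gene the probe set of highest mean among those naming it alone was used, and genes at or below the 25th percentile (5.50) were left out. Limma 3.58.1 in R 4.3.3 (eBayes with a trend) was fitted over 14953 genes with Benjamini-Hochberg adjustment at 0.05, with genotype alone, with genotype and replicate set, and with their interaction; directions are Zbtb32-/- minus wild type and replicates 4 to 6 minus 1 to 3. Permutation tests were two-sided; pair correlations used 100000 resamples in Python 3.11.15. The script was tested on simulated data. Alternatives were other normalizations, filters, probe set rules and variance models, array weights, a marker covariate, a replicate block, single sets or genotypes and left-out arrays.

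The members, gene lists, motifs and alternatives were chosen with earlier results of these data known. The text names the members; the 3 highest and 3 lowest genes of each pathway list per comparison and those past the threshold; the 8 genes most like the member mean; Zbtb32; and markers needed for the ranges. Markers of other cells named with a call and the genes most like single members were chosen after their values were seen. Deviations from the group means correlated over 0.1 in 4 of 6 same-numbered pairs and not in every pair, so the replicate numbers were not taken to pair the samples.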

Additional observations from a re-analysis of the deposited data

Results flagged for a closer look

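Derl2 in Zbtb32-/- replicate 6 had a log2 value of 7.889, far below the other 5 Zbtb32-/- arrays, which lay between 8.75 and 8.98. Its gap to the nearest of them took up 0.786 of the group's range, above the critical ratio of 0.625 for 6 samples. It was the only one of 20 groups (10 members in each genotype) that passed this ratio, and chance passes about 1 in 20 groups. The same array had the highest mean of neutrophil markers, 12.35, and the part of that in the low value was not tested. Without it, the genotype difference of Derl2 was 0.249 and its replicate set difference -0.489, and neither passed the threshold with limma.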

How the results depend on the processing

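Between the genotypes no member was called under any of the 28 alternatives. Over all genes, 7 probe sets, none of them used for a gene here, were called when every probe set was tested. Over replicates 4 to 6, 1 gene was called, Rny1 (-1.52). The genotype direction reversed for Edem1 after renewed quantile normalization (-0.0048), and over replicates 1 to 3 for Syvn1 (-0.0454), Sel1l (-0.172), Herpud1 (-0.105), Edem1 (-0.114), Edem2 (-0.0217), Edem3 (-0.233) and Derl2 (-0.0888). On leaving out single arrays it reversed for Herpud1 (-0.0211 to 0.26), Edem1 (-0.0451 to 0.106), Edem2 (-0.00149 to 0.176), Derl2 (-0.0336 to 0.249) and Derl3 (-0.0229 to 0.272). With the replicate block, 0 genes were called and 913 had an unadjusted p under 0.05; standard errors were smaller (Os9 0.107 against 0.165), same-numbered samples correlated at 0.0189 to 0.468, and for 2 of 6 numbers the same number was the best match. Between the replicate sets, the 965 calls became 1579 with no filter and 3384 over all probe sets, 36 with the marker covariate, 71 without wild-type replicate 4 and Zbtb32-/- replicate 6, 23 in wild-type arrays and 2 (Mdga2 and Srsy) in Zbtb32-/- arrays, the last 3 with fewer samples, and 238 to 1190 on leaving out single arrays. Higher genes made up 31% of these calls, 20.8% after median centring, 51.5% with no filter, 19.6% with a stricter one, 58.2% over all probe sets and 61.1% with the covariate. The set difference reversed in Zbtb32-/- arrays for Sel1l (0.00122) and Edem3 (0.0854). The interaction had 1 call, Lce6a, with array weights and without the 2 arrays named above, and 0 to 1 on leaving out single arrays (Lce6a or Uty). It reversed for Derl3 after quantile normalization (-0.0085) and with the covariate (-0.0158), and on leaving out single arrays for Derl3 (-0.131 to 0.269) and Derl1 (-0.0127 to 0.319). Pairs of members that correlated fell from 37 to 0 in either replicate set and as deviations from group means, and to 19 after quantile normalization. The cause of these changes was not tested. No other background correction was run, since raw intensities were not used here, and signal over background is therefore unknown.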
